A study of Mus musculus with 10 samples.

Results

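Open chromatin was followed around the genes of 8 transcription factors of the extraembryonic lineages, Cdx2, Eomes, Elf5, Tfap2c, Gata2, Gata3, Gata4 and Gata6, while mouse fibroblasts were reprogrammed towards pluripotency. Peaks that reached from 50 kb before to 50 kb after each gene (mm10) were taken from 10 ATAC-seq peak lists, and peaks that overlapped in any list were merged. This gave 134 regions of the 208851 in the whole series, with 12 near Cdx2, 14 near Eomes, 21 near Elf5, 21 near Tfap2c, 17 near Gata2, 21 near Gata3, 19 near Gata4 and 9 near Gata6. ATAC-seq marks open DNA by the insertions of a transposase, and each list holds the places where insertions of 1 library pile up over their surroundings.

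The samples were 2 libraries at each of 5 stages, on a mixed C57BL/6 x 129 background. Mouse embryonic fibroblasts (MEF) with a polycistronic OKSM cassette (Oct4, Klf4, Sox2 and Myc) at Col1a1, and with its doxycycline-dependent activator M2rtTA at Rosa26, were grown without doxycycline and not sorted. The same cells in embryonic stem cell medium with 1 µg/ml doxycycline and 50 µg/ml ascorbic acid were collected unsorted at day 3 (DAY3), and after sorting for the surface marker SSEA1 at day 6 (DAY6) and day 9 (DAY9). Embryonic stem cells of the V6.5 line (ESC), which lack the cassette and grew on irradiated feeder cells in medium with LIF and without doxycycline, were the pluripotent reference. Sorting and stage cannot be told apart at DAY6 and DAY9, nor can the cassette and stage at ESC. Bulk samples do not show whether a peak is weak in all cells or present in few.

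The mouse blastocyst sets aside the trophectoderm, which forms the placenta, and the primitive endoderm, which forms the yolk sac, from the pluripotent epiblast. Cdx2, Eomes, Elf5, Tfap2c, Gata2 and Gata3 act in the trophectoderm and in trophoblast stem cells, and Gata4 and Gata6 act in the primitive endoderm. These factors bind DNA, most are kept low in pluripotent cells, and several of them, when forced on there, turn the cells towards extraembryonic fates. Open chromatin near a gene marks elements that factors can reach, and it does not by itself show that the gene is transcribed.

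Libraries differed in depth and in how alike the replicates were. The lists held 45497 to 88980 peaks, and the commonest background pileup, recovered from the fold and the p-value of the peaks and used as relative depth, ran from 2.327 in DAY6 replicate 2 to 8.322 in MEF replicate 2. The lowest summit pileup in a list ran from 11 to 23, so weaker openings are not listed. Summit pileups of 100 to 200 differed between the libraries of a stage by 5.56 times counting noise in MEF, 3.61 times in DAY6 and 8.11 times in ESC, and by only 1.33 times in DAY3 and 1.42 times in DAY9. The DAY3 pair and the DAY9 pair were therefore each averaged and counted as 1 sample (n = 1), which left 8 samples and no replicate error for these stages. Among 8 pluripotency genes checked for a peak at a gene end, 0 were marked in the MEF pair and 7 in the ESC pair. Of 8 fibroblast genes, 7 were marked in the MEF pair and still 6 in the ESC pair, so these do not separate the stages, and 0 of 3 blood genes had a peak. Among 3 neural genes, 1 was marked in the MEF pair and 3 in the ESC pair, and among 4 epithelial genes 0 and 4. The part of feeder cells in the ESC lists was not tested.

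Sequence before the start sites is shown first for Cdx2, Elf5, Gata2 and Gata3. RefSeq (GRCm38.p6) promoter sequences were at hand for 5 of the 8 genes, with 2 start sites for Elf5 and for Gata2. The sequence of Eomes is not shown: its start site lay in a region open in all 10 libraries, and its 250 bases held no match. Each line gives the 250 bases before a start site, 5′ to 3′ on the gene's own strand, and capitals mark matches to 7 motifs searched on both strands: a GATA site (AGATAA), a Klf site (GGGTGTGG), an AP-1 site (TGANTCA), an octamer site (ATGCAAAT), a Tfap2 site (GCCNNNGGC), a Tead site (GGAATG) and a T-box site (AGGTGTGA).
Cdx2, chr5:147307250-147307499, minus strand: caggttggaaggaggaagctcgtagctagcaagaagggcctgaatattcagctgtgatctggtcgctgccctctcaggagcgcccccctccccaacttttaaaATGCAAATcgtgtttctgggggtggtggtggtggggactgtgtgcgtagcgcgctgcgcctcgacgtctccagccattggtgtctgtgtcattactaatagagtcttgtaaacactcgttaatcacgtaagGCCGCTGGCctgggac
Elf5 first start site, chr2:103411848-103412097, plus strand: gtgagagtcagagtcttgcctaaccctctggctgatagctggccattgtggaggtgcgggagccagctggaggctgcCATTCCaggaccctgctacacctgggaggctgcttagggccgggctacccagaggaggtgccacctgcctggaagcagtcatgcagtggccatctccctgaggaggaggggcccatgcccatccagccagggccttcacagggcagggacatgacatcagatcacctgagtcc
Elf5 second start site, chr2:103423818-103424067, plus strand: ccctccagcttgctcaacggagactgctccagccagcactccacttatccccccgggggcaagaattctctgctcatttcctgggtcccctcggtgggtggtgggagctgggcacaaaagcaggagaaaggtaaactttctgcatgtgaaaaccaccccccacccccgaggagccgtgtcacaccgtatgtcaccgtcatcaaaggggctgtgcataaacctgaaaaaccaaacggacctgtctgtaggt
Gata2 first start site, chr6:88193641-88193890, plus strand: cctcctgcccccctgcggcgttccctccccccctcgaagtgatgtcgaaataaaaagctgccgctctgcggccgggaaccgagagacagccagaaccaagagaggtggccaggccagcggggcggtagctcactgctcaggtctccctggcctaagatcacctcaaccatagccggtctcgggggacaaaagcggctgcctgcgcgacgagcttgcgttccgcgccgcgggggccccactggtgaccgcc
Gata2 second start site, chr6:88198414-88198663, plus strand: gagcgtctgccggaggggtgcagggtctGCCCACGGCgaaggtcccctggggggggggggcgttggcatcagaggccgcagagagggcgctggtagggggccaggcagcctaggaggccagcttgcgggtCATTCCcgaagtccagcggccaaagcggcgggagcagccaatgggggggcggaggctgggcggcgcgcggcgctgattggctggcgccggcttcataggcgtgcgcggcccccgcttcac
Gata3, chr2:9878601-9878850, minus strand: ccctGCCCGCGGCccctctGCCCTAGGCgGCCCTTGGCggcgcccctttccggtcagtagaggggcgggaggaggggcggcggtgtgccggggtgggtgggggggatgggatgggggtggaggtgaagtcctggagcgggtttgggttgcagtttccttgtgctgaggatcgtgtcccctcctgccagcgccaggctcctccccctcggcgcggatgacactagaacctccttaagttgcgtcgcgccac

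The Cdx2 stretch holds an octamer match from 147 to 140 bases before the start and a Tfap2 match from 16 to 8 bases before it. Octamer matches occurred in 1.60% and Tfap2 matches in 13.7% of the 32851 promoters of the table at the same length. Tfap2 matches were also found 3 times before the Gata3 start and 1 time before the second Gata2 start. Tead matches, which 12.6% of promoters hold, lay before the first Elf5 start and the second Gata2 start. GATA, Klf, AP-1 and T-box matches were found in 0 of the 7 stretches searched, Eomes included. Of all promoters, 9.99%, 3.20%, 6.75% and 1.12% held them. The Elf5 first start had 2 CpG pairs in its 250 bases, its second start 8, and the Gata2 starts 22 and 24, against a median of 6 over the table. A match to a motif is a description of the letters and does not show that a factor bound there.

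Regions open near the 8 genes were about as common as in the whole series in fibroblasts and at DAY3, and were a larger share than in the series at DAY6, DAY9 and ESC. Peaks in both libraries of a stage were present in 27 of the 134 regions in MEF, 26 in DAY3, 41 in DAY6, 58 in DAY9 and, among the ESC pair, 51. The same rule called 22.1% of all regions of the series in MEF, 16.9% in DAY3, 21.7% in DAY6, 30.8% in DAY9 and 28.2% in ESC, against 20.1%, 19.4%, 30.6%, 43.3% and 38.1% near the 8 genes. Per library the number of regions with a peak was 41 and 39 (MEF), 33 and 30 (DAY3), 51 and 47 (DAY6), 63 and 65 (DAY9), and 88 and 63 (ESC), for replicates 1 and 2. The lists also differ in length, and the DAY3 lists are the shortest. A peak in both libraries is easier to reach in the DAY3 and DAY9 pairs, whose replicates were most alike. Counts by stage, first stages of opening and steps between stages share this limit. All 10 libraries had a peak in 11 regions (8.21%, and 7.35% of all regions), and 44 regions were seen in a single library (32.8%, and 37.9% of all regions). Median width was 529 bp, close to the 509 bp of all regions.

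**Figure D1:**
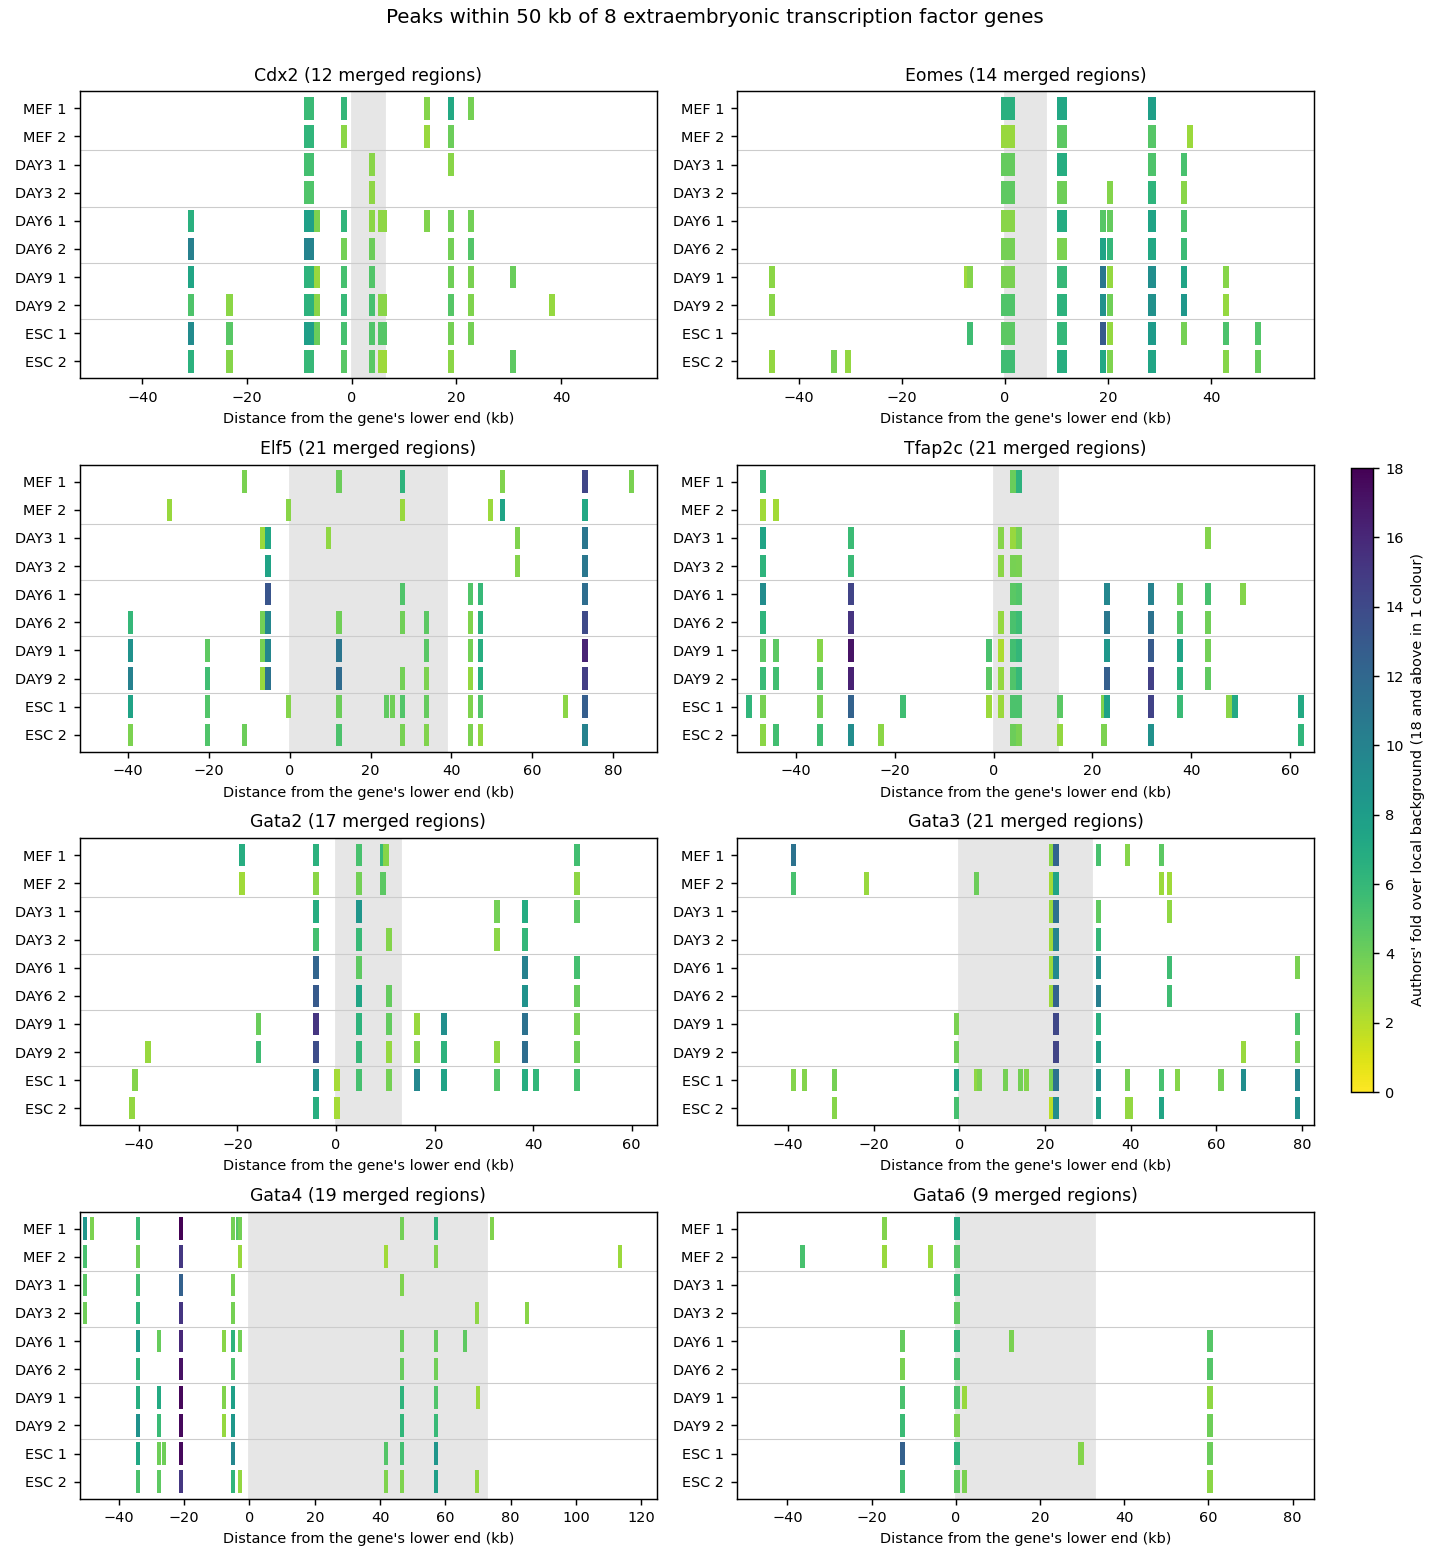
Each panel shows 1 gene, with distance from its lower genomic end in kb on the horizontal axis and the 10 libraries as rows; bars are merged regions with a peak, drawn at least 1.2 kb wide, coloured by the authors' fold, and the grey band is the gene. The dark Tfap2c bar 28.5 kb below the gene starts at DAY3, the Elf5 bar 4.68 kb below the gene is present at the 3 intermediate days alone, and Gata3 has 18 regions in ESC replicate 1 and 9 in ESC replicate 2.

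Density of regions differed among the genes. Tfap2c had 18.6 merged regions per 100 kb of window, more than 89.2% of protein-coding genes, and Gata6 had 6.76, more than 23.9% of them. Distances below or above a gene run towards lower or higher coordinates. The median of the 8 genes was 14.0 per 100 kb, against 11.0 over 21900 protein-coding genes. Of the 134 regions, 34 overlapped the gene itself, and 46 lay nearer to an end of another protein-coding gene, among them 10 near Gata4 and 8 near Elf5, so a region near a member need not belong to it. The exons and introns they fall in were not analysed here.

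To ask whether a gene's number of regions with a peak differed between stages, the share of the sum of squares between stages was computed for each gene of the genome. Eomes averaged 3.5 ± 0.71 regions in MEF (SD, n = 2) and 4.5 at DAY3. The number was 6 in each DAY6 library, 9 on average at DAY9, and 9.5 ± 0.71 in ESC (SD, n = 2), so the DAY9 and ESC libraries lay above all MEF, DAY3 and DAY6 libraries and overlapped each other. Its between-stage share of 97.9% was reached by 6 of 420 arrangements (exact permutation test, p = 0.0143), and the Benjamini-Hochberg adjusted value over 21335 genes of this exact permutation test was 0.266. Tfap2c averaged 2.5 ± 0.71 regions in MEF (SD, n = 2), 5.5 at DAY3, 9 in each DAY6 library, 12 in each DAY9 library and, with a wide spread, 14.0 ± 4.24 in ESC (SD, n = 2). Its between-stage share was 89.3% (exact permutation test, p = 0.0548, adjusted over all genes 0.302).

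The other 6 genes had shares of 34.0% (Gata2) to 88.0% (Cdx2), with exact permutation p-values of 0.1 to 0.836. The Gata2 share was 95.3% without ESC replicate 1 and 97.5% without ESC replicate 2. The Gata4 share of 39.2% became 59.4% without MEF replicate 2, 74.0% without DAY6 replicate 1 and 63.0% without DAY6 replicate 2. Leaving out 1 library removes the spread within its stage, which can by itself raise the share. These higher shares therefore cannot show a difference between stages. An unadjusted p below 0.05 was reached by 1 of the 8 genes and by 15.8% of all genes, and no gene of the genome passed after adjustment (0 of 21335, smallest adjusted value 0.251). The median between-stage share was 74.7% for the 8 genes and 81.4% for all genes. A change in ESC alone has little chance of a small p here, because 45 of the 420 arrangements keep the ESC libraries together.

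**Figure D2:**
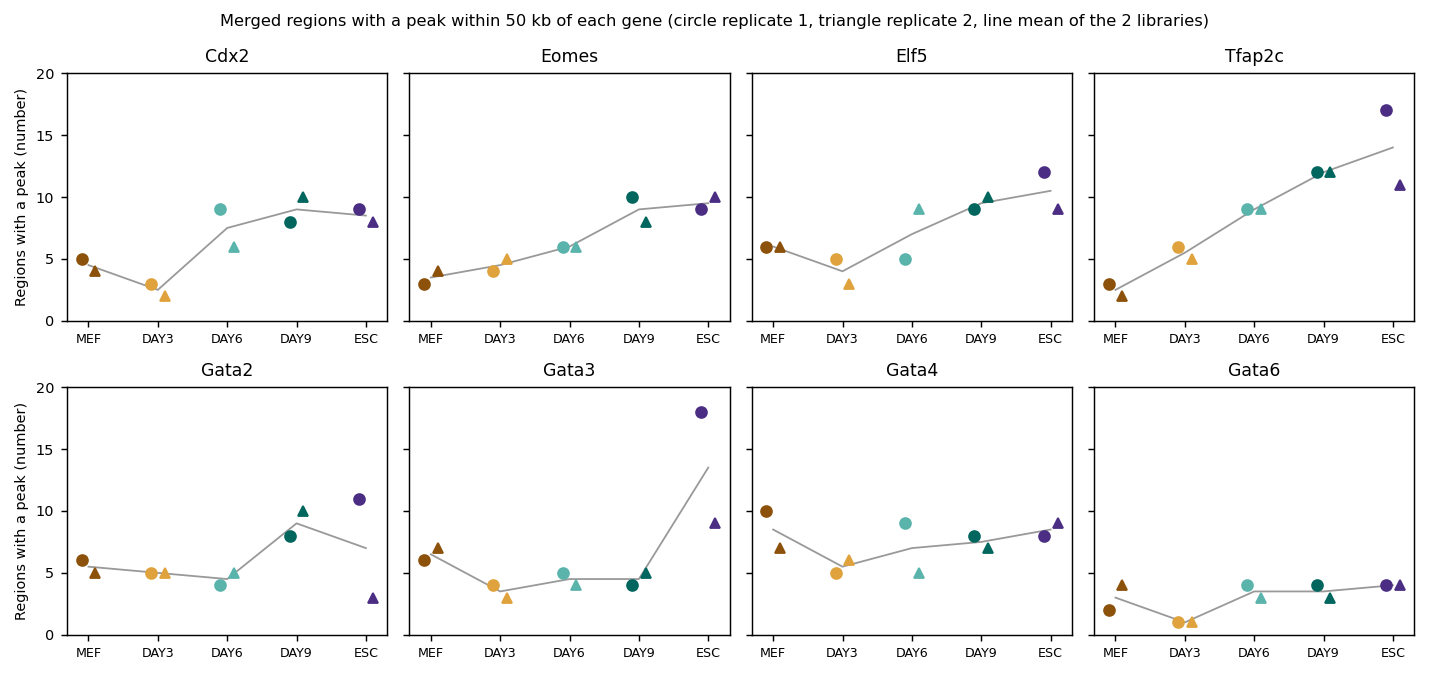
Each panel plots, for 1 gene, the number of merged regions with a peak within 50 kb (vertical axis) against stage, with circles for replicate 1, triangles for replicate 2 and a line through the mean of the 2 libraries. Tfap2c runs from 3 and 2 regions in MEF to 17 and 11 (ESC), and the ESC replicates lie farthest apart for Gata3 (18 and 9) and Gata2 (11 and 3).

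Openings at intermediate days only, with a peak in both libraries of at least 1 of DAY3, DAY6 and DAY9 and none in the MEF and ESC lists, were found in 6 of the 134 regions (4.48%), against 9.61% of all regions of the series. Elf5 had 3 of them, Tfap2c 1, Gata2 1 and Gata4 1, and Cdx2, Eomes, Gata3 and Gata6 had 0. Only 1 of the 6, upstream of Elf5, had peaks in both libraries of all 3 days, a pattern of 1.69% of all regions. The count rests on the ESC libraries. Without ESC replicate 1 there were 20 such regions of 119 (16.8%, and 12.3% of all regions), and without ESC replicate 2 there were 7 of 130 (5.38%, and 12.2% of all regions). With lists of equal length there were 11 of 84 (13.1%, and 14% of all regions), so the share near the 8 genes was below, near or above that of the series depending on the lists used.

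Elf5 is a factor of trophoblast stem cells whose gene is known to be methylated and silent in embryonic stem cells. Its intermediate region lay at chr2:103406071-103407418, 4.68 kb upstream of the first start site shown above, and was 1348 bp wide. The fold there was 7.34 and 7.54 (DAY3), 13.3 and 9.65 (DAY6), and 9.75 and 11.2 (DAY9), and no MEF or ESC library had a peak. All 6 libraries of the intermediate days had a peak. They are fewer than 6 samples, because the DAY3 pair and the DAY9 pair were each averaged. The lack of a peak in the 4 libraries of the end states is part of the rule that selected this region. Its highest score, 883, is above that of 95.5% of the 20067 regions of the series that are open at intermediate days only, and above that of 81.6% of the 3520 with peaks in both libraries of all 3 days. The pattern was kept under all 13 alternatives that changed the lists, the overlap or the libraries. None of them can add a MEF or ESC peak, so they cannot test whether the end states were closed. Leaving out a library could not break the pattern here, since all 3 days had peaks in both libraries. Lists of equal length, the minimum score and the coverage rule show only that enough intermediate-day peaks passed these stricter rules.

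The other 5 intermediate regions had lower scores. A narrower region next to it, chr2:103405197-103405626, had a fold of 2.73 in DAY3 replicate 1, 3.82 in DAY6 replicate 2, and 3.69 and 2.79 (DAY9). On the other side of Elf5, inside the neighbouring gene Cat (catalase), chr2:103468338-103468651 had a peak in DAY3 alone, with a fold of 3.49 and 3.35. Near Tfap2c, 30.1 kb above the gene, chr2:172588755-172589377 had a fold of 3.33 in DAY3 replicate 1, 5.29 and 3.91 (DAY6), and 3.84 and 4.43 (DAY9). These are low folds for which an unlisted peak at an end state cannot be told from no opening.

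The remaining pair opened at DAY9 in both libraries. Upstream of Gata2 by 15.3 kb, chr6:88177832-88178547 had a fold of 4.08 and 5.61 (DAY9) and no peak in any other library. Below Gata4, inside Neil2, a DNA repair glycosylase gene, chr14:63190838-63191348 had 3.38 and 2.86 (DAY9) and 3.23 in DAY6 replicate 1. When only peaks at or above the median score of all lists, 133, were kept, only the Elf5 region 4.68 kb upstream, of these 6, kept the pattern, and 5 other regions took it on.

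**Figure D3:**
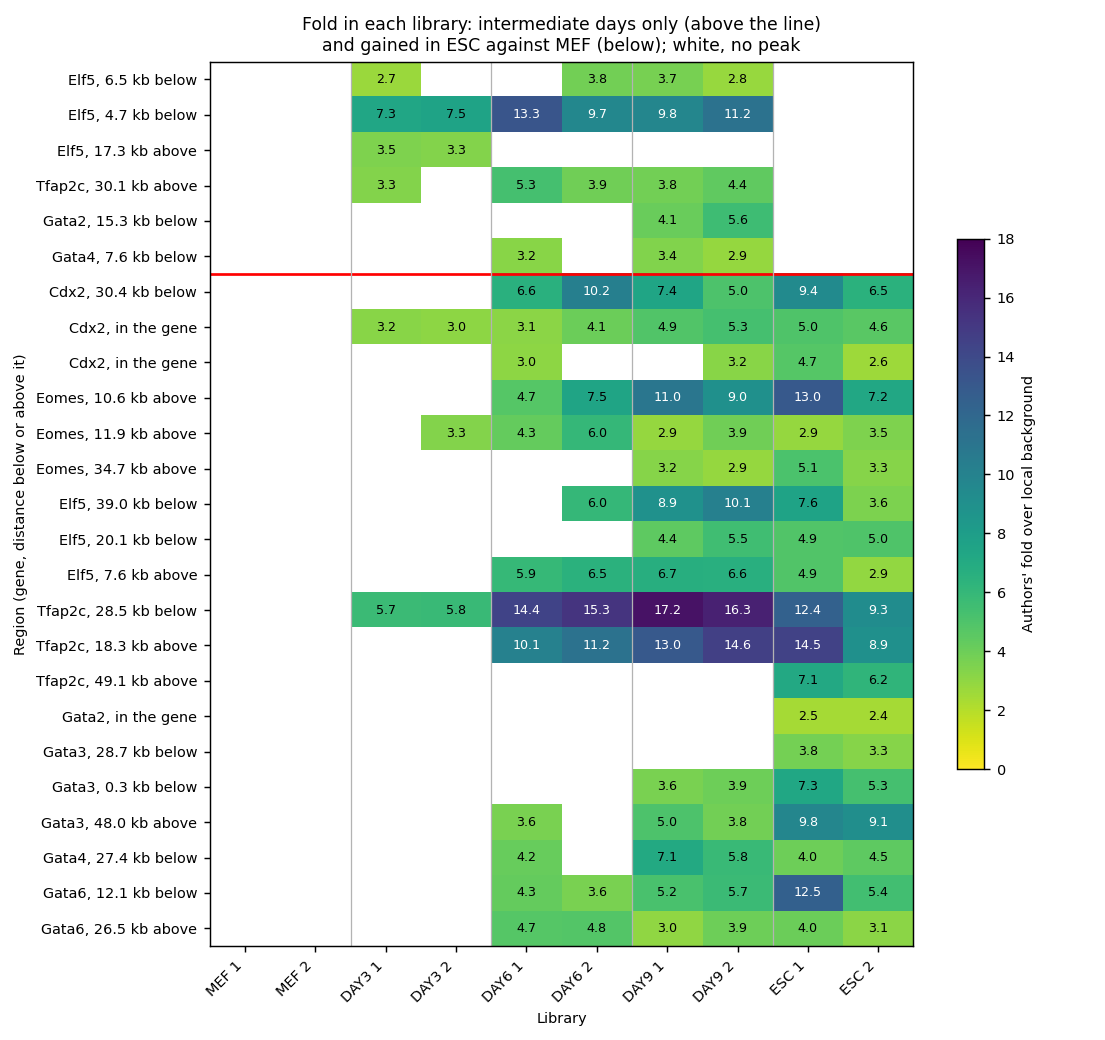
The grid gives the authors' fold in each library (columns) for the 6 regions open at intermediate days only (above the line) and for up to 3 regions per gene gained in ESC against MEF (below it); white means no peak. The Elf5 region 4.7 kb below the gene has folds of 7.3 to 13.3 in the 6 intermediate libraries, and the Tfap2c region 28.5 kb below the gene rises from 5.7 at DAY3 to 17.2 at DAY9.

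Regions gained in ESC against MEF (both ESC libraries and no MEF library) numbered 26 (19.4%), against 15.9% of all regions, and lost regions, the opposite case, numbered 6 (4.48%), against 11.1% of all regions. Gains were 6 near Tfap2c, 5 near Elf5, 4 near Cdx2, 4 near Eomes, 3 near Gata3, 2 near Gata6, 1 near Gata2 and 1 near Gata4. Among the 26, DAY3 was the earliest stage with peaks in its library pair for 2 (7.69%), DAY6 for 8 (30.8%), DAY9 for 8 (30.8%) and ESC for 8 (30.8%). Over all 33275 gained regions these shares were 8.69%, 14.7%, 15.7% and 60.9%. Step by step, DAY3 against MEF showed 8 gained and 11 lost regions (5.43% and 10.4% of all regions), DAY6 against DAY3 showed 13 and 3 (5.29% and 1.5%), DAY9 against DAY6 showed 10 and 2 (5.39% and 0.956%), and ESC against DAY9 showed 10 and 5 (9.1% and 9.24%). DAY9 against MEF showed 34 gained and 10 lost (16.8% and 11%). Steps that share a stage share its libraries. In 52 regions (38.8%, and 43.8% of all regions) no stage had a peak in both of its libraries. Without MEF replicate 1 there were 14 lost regions (10.9%, and 19.4% of all regions) and without MEF replicate 2 there were 11 (8.66%, and 21.4%). Without ESC replicate 2 there were 58 gained regions of 130 (44.6%, and 29% of all regions), and without ESC replicate 1 there were 35 of 119 (29.4%, and 29.8%). Gains made up 16.5% of the regions within 25 kb and 15.8% of those within 100 kb, near the 15.9% of all regions. No p-value is given for these calls, since 2 libraries on each side cannot reach 0.05.

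**Figure D4:**
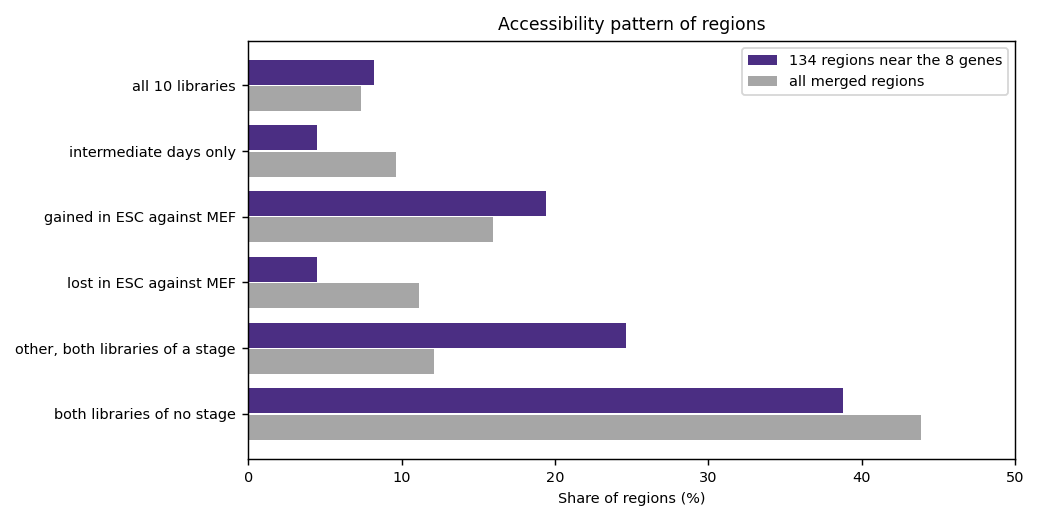
Bars give the share of regions (horizontal axis, %) in each accessibility pattern for the 134 regions near the 8 genes and for all merged regions. The largest gap is in the class open in both libraries of some stage but with another pattern, with 24.6% near the genes and 12.1% overall.

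Tfap2c encodes AP-2 gamma, which works in the trophectoderm and in primordial germ cells. Few regions near it were open in fibroblasts, 3 and 2, then 6 and 5 (DAY3), 9 and 9 (DAY6), 12 and 12 (DAY9) and 17 and 11 (ESC). MEF and DAY3 libraries did not overlap with DAY6 and later libraries. The region with the highest score, chr2:172516291-172517226, lay 28.5 kb below the gene. It had no MEF peak and a fold of 5.71 and 5.78 (DAY3), 14.4 and 15.3 (DAY6), 17.2 and 16.3 (DAY9), and 12.4 and 9.25 (ESC). The DAY3 values are the lowest of the libraries with a peak, and the DAY9 values the highest.

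Another 3 regions above Tfap2c opened at DAY6 in both libraries. At chr2:172576941-172578081 the fold was 10.1 and 11.2 (DAY6), 13.0 and 14.6 (DAY9), and 14.5 and 8.94 (ESC). The regions chr2:172568301-172568947 and chr2:172583092-172583793 were open in the same DAY6 and DAY9 libraries but in ESC replicate 1 only, with a fold there of 7.69 and 5.81. Next to the lower gene end, chr2:172544541-172545045 had peaks at DAY9, with a fold of 5.27 and 4.59, and in ESC replicate 1, with 2.69. Above the gene by 49.1 kb, chr2:172607692-172608185 was open in ESC alone, at 7.14 and 6.19.

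Eomes encodes a T-box factor of the trophoblast that also acts in early mesendoderm. The region over its start site lay at chr9:118477449-118480128 and was open in all 10 libraries, with folds from 2.79 (MEF replicate 2) to 6.57 (MEF replicate 1). Of the 4 gained regions, the one with the highest score opened at DAY6. All 4 lay nearer to an end of another protein-coding gene, as did 7 of the 14 regions in all, so they need not belong to Eomes. At chr9:118496733-118497485, 10.6 kb downstream, no MEF or DAY3 library had a peak, and the fold was 4.72 and 7.48 (DAY6), 11.0 and 9.00 (DAY9), and 13.0 and 7.23 (ESC). Its neighbour at chr9:118498011-118498976 had a fold of 3.35 in DAY3 replicate 2, 4.27 and 5.99 (DAY6), 2.86 and 3.88 (DAY9), and 2.87 and 3.47 (ESC). The 2 regions lie close together and order the stages differently, since the first was highest in ESC replicate 1 and the second in DAY6 replicate 2. Inside Golga4, a Golgi protein gene, chr9:118520843-118521264 opened at DAY9, with a fold of 3.24 and 2.87 (DAY9) and 5.13 and 3.25 (ESC), while chr9:118505812-118507347 was open in all libraries, with folds from 4.72 to 9.18.

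Elf5 had 6 and 6 regions in MEF, 5 and 3 (DAY3), 5 and 9 (DAY6), 9 and 10 (DAY9), and 12 and 9 (ESC). No library had a peak over its first start site. A region that ended 0.042 kb before it, chr2:103411350-103412056, reaches into the 250 bases shown above and had a fold of 3.22 in MEF replicate 2 and 3.35 in ESC replicate 1. The second start site lay in chr2:103423609-103425081. The fold at this second site was 4.08 in MEF replicate 1, 3.91 in DAY6 replicate 2, 11.0 and 11.8 (DAY9), and 4.02 and 5.11 (ESC). Both DAY9 libraries were above all others there. A region 39.0 kb upstream, chr2:103372301-103373100, had a fold of 6.01 in DAY6 replicate 2, 8.89 and 10.1 (DAY9), and 7.58 and 3.56 (ESC). The strongest peak of the window, chr2:103484501-103485798, lay inside Cat and was open in every library, with folds from 7.21 to 16.2. Also inside Cat, chr2:103458596-103459994 was gained and opened at DAY6, with a fold of 5.91 and 6.47 (DAY6), 6.74 and 6.62 (DAY9), and 4.92 and 2.94 (ESC), and chr2:103464516-103464975 was open in MEF alone, at 3.40 and 7.51. Below the gene by 20.1 kb, the gained region chr2:103391642-103392034 had 4.44 and 5.49 (DAY9) and 4.91 and 4.96 (ESC).

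Cdx2 encodes a homeobox factor that specifies the trophectoderm. The number of regions was 5 and 4 (MEF), 3 and 2 (DAY3), 9 and 6 (DAY6), 8 and 10 (DAY9), and 9 and 8 (ESC). Its start site lay in chr5:147305952-147307622, which had a peak in both ESC libraries, with a fold of 4.75 and 2.62, and in DAY6 replicate 1 (3.03) and DAY9 replicate 2 (3.18). Inside the gene, chr5:147304345-147305285 opened earlier, with a fold of 3.17 and 3.03 (DAY3), 3.12 and 4.07 (DAY6), 4.89 and 5.33 (DAY9), and 4.97 and 4.58 (ESC). These values lay higher in DAY9 and ESC than in DAY3 and DAY6. The strongest region, chr5:147269807-147270480, lay inside Pdx1, the pancreatic homeobox gene, and opened at DAY6, so it need not belong to Cdx2. Of the regions below the gene, chr5:147291785-147293697 was open in all libraries, with folds from 4.94 to 9.94, and chr5:147298907-147300027, 0.873 kb from the gene, had 6.10 and 3.11 (MEF), 6.25 and 3.87 (DAY6), 5.33 and 5.88 (DAY9), and 5.29 and 4.70 (ESC) and no peak at DAY3. The 1 lost region, chr5:147314741-147315873, was in Urad, a purine metabolism gene, with a fold of 3.33 and 2.79 (MEF) and 3.42 in DAY6 replicate 1.

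Gata2 and Gata3 encode zinc finger factors that act together in trophoblast and separately in blood cells. Near Gata2 there were 6 and 5 regions in MEF, 5 and 5 (DAY3), 4 and 5 (DAY6), 8 and 10 (DAY9), and 11 and 3 (ESC), so the ESC replicates bracketed all other stages. The highest score belonged to chr6:88189386-88190309, 3.58 kb upstream, which was open in every library with a fold of 6.48 and 3.16 (MEF), 6.77 and 5.37 (DAY3), 12.2 and 13.0 (DAY6), 15.2 and 13.8 (DAY9), and 8.83 and 6.71 (ESC). The DAY6 and DAY9 values were above those of every other stage. The first Gata2 start site, in chr6:88193816-88194411, had a peak in ESC alone, with a fold of 2.45 and 2.41, while the second, in chr6:88198173-88198986, was open in every library but ESC replicate 2. Downstream by 24.9 kb, and nearer to an end of another protein-coding gene, chr6:88231921-88232673 was open from DAY3 to DAY9. Its fold was 6.91 and 6.11 (DAY3), 10.2 and 8.80 (DAY6), 11.3 and 11.6 (DAY9), and 6.80 in ESC replicate 1 alone. A peak in MEF alone marked 2 lost regions, chr6:88203256-88203708 inside the gene, with a fold of 5.86 and 4.51, and chr6:88174660-88175003, 18.9 kb upstream, with 6.79 and 2.57.

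Gata3 had 6 and 7 regions in MEF, 4 and 3 (DAY3), 5 and 4 (DAY6), 4 and 5 (DAY9), and 18 and 9 (ESC), so the height of the ESC mean rests mainly on replicate 1. The strongest region, chr2:9879195-9880020, inside the gene next to the start site shown above, was open in every library, with folds from 7.45 to 14.4. The RefSeq start site, which lies inside the span of the gene, was in chr2:9878274-9879049, a region with a peak in every library except those of DAY9. Below the gene by 0.273 kb, chr2:9855865-9856805 had a fold of 3.60 and 3.94 (DAY9) and 7.27 and 5.33 (ESC). Above it by 0.988 kb, chr2:9888941-9890218 had a fold of 5.25 in MEF replicate 1, 4.40 and 5.99 (DAY3), 8.98 and 10.3 (DAY6), 6.59 and 7.67 (DAY9), and 8.77 and 7.81 (ESC), and so was open from DAY3 on. Of the other gained regions, chr2:9827468-9828388 was open in ESC alone (3.79 and 3.25), and chr2:9935908-9936344, inside Taf3, a transcription initiation factor gene, had 3.59 in DAY6 replicate 1, 5.02 and 3.82 (DAY9), and 9.77 and 9.14 (ESC). At chr2:9817965-9818676 the fold was 11.2 and 5.26 (MEF) and 3.35 in ESC replicate 1. A DAY6 opening that misses the rule by 1 weak MEF peak, chosen after its values were seen, was chr2:9905834-9906591, with a fold of 5.61 and 5.56 (DAY6), 3.01 in DAY3 replicate 1 and 2.57 in MEF replicate 2. It lay nearer to an end of another protein-coding gene.

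Per library, the primitive endoderm genes spanned 5 to 10 regions for Gata4 and 1 to 4 for Gata6. Gata4, a zinc finger factor, had 10 and 7 (MEF), 5 and 6 (DAY3), 9 and 5 (DAY6), 8 and 7 (DAY9), and 8 and 9 (ESC), and the stages overlapped. Its window shares Fdft1, an enzyme gene of cholesterol synthesis, which held the strongest region, chr14:63177552-63178559, open in all libraries at folds of 12.4 to 20.3. Also inside Fdft1, chr14:63170844-63171553 was gained, with a fold of 4.18 in DAY6 replicate 1, 7.06 and 5.78 (DAY9), and 4.00 and 4.49 (ESC), while chr14:63148257-63149005 was open in MEF (8.55 and 5.26) and DAY3 (4.60 and 3.99) and in no later library. A further region inside Fdft1, chr14:63164051-63165460, was open in all libraries, with folds from 3.97 to 8.85.

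Gata6, the earliest factor of the primitive endoderm, had the fewest regions: 2 and 4 (MEF), 1 and 1 (DAY3), 4 and 3 (DAY6), 4 and 3 (DAY9), and 4 and 4 (ESC). The region over its lower end, chr18:11052141-11053506, was open in all libraries, with folds of 3.54 to 6.99, and it was the only region near Gata6 in DAY3. Both gained regions opened at DAY6. Below the gene by 12.1 kb, chr18:11039455-11040372 had a fold of 4.27 and 3.61 (DAY6), 5.16 and 5.73 (DAY9), and 12.5 and 5.42 (ESC), and above it by 26.5 kb, chr18:11112134-11113592 had 4.72 and 4.81 (DAY6), 3.00 and 3.94 (DAY9), and 4.02 and 3.10 (ESC). MEF libraries alone had peaks at chr18:11035245-11035796, lost with a fold of 3.40 and 2.79, and at chr18:11015899-11016332, with 5.26 in replicate 2.

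The ESC libraries disagreed near part of the genes. ESC replicate 1 had 8 more regions than replicate 2 near Gata2, 9 more near Gata3 and 6 more near Tfap2c, differences that 1.06%, 0.680% and 3.22% of all genes reached. Near Cdx2, Eomes, Gata4 and Gata6 the replicates differed by at most 1 region. A peak in ESC replicate 1 alone, of all 10 libraries, marked 18 of the 134 regions (13.4%), against 7.5% of all regions, and a peak in ESC replicate 2 alone marked 5 (3.73%), against 8.9%. The list of replicate 1 is the shorter of the pair, with 86585 peaks beside 88980, and its relative depth is lower, with a background pileup of 3.483 beside 5.458. Their part in the difference was not tested.

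Regions that opened at an intermediate day without a MEF peak numbered 36 near the 8 genes. Both ESC libraries had a peak in 18 (50.0%), ESC replicate 1 alone in 11 (30.6%), replicate 2 alone in 1 (2.78%) and neither in 6 (16.7%). Over the 40062 such regions of the series the shares were 32.4%, 9.41%, 8.06% and 50.1%. The 11 were 5 near Gata2, 4 near Tfap2c, 1 near Cdx2 and 1 near Eomes. ESC replicate 1 alone thus decided for these 11 whether an opening was called intermediate only.

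Related genes were counted by peaks within 1 kb of either gene end, in both libraries of a stage, measured from each library's own peak and not from the merged region, which can reach closer. Of the 8 genes themselves, 2 (Eomes and Gata6) had such peaks in MEF, DAY3 and DAY6, 4 in DAY9 with Tfap2c and Gata3 added, and 6 in ESC with Cdx2 and Gata2 added. Elf5 and Gata4 had them in both libraries of no stage. Of 12 other trophoblast genes the numbers were 4 in MEF, 5 in DAY3, 7 in DAY6, 6 in DAY9 and, among the ESC pair, 10, and of 15 genes of the primitive and visceral endoderm 3, 4, 4, 6 and 10. Over all protein-coding genes the shares were 55.6%, 54.9%, 59.5%, 63.1% and 62.2%. Tfap2a, a paralogue of Tfap2c, and Krt8, a keratin of simple epithelia, had first peaks in both libraries at DAY6 and DAY3. Foxa2, an endoderm factor, had them from DAY9 on, and Ttr, a visceral endoderm transport protein gene, in ESC alone. Krt7, Hnf4a, Dab2 and Cubn had no such peak in any library, and Esx1, Pdgfra and Afp had them in both libraries of no stage.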

How the data were processed

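The authors deposited 1 peak list per library, not pooled, as 10 columns without a header. Per the submitters' processing notes, Bowtie2 2.3.2, deepTools 2.3.6, MACS2 2.1.1 and the build mm10 were named with no role given; filters, duplicate handling and transposase offset are not given in the sources used here. The deposited score is 10 times the −log10 p-value of the peak, and the deposited fold is a linear ratio of the summit over local background. Both are the authors' own. Fold served to describe peaks, and score to rank them as highest or strongest. Depth differed between lists, and at equal fold the score rises with depth, so this ranking favours the deeper lists. Gene coordinates came from RefSeq (GRCm38.p6, the mm10 assembly).

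Peaks that overlapped by at least 1 bp in any list were merged. A region was open at a stage if both libraries had a peak, and its fold in a library is the highest fold of its peaks there. Whole summit pileups were recovered from fold and p (tolerance 0.01 in −log10 p). Differences between stages in the number of regions per gene were examined by exact permutation of the between-stage share, for all protein-coding genes with Benjamini-Hochberg adjustment (Python 3.11.15, numpy 2.4.6). The test was also run on simulated counts that held counting noise alone. Summit pileups of the MEF, DAY6 and ESC replicates differed by more than counting noise, a spread that the simulation did not hold. Where nothing says that libraries came from separate cultures, p-values measure only the spread between these libraries. The members and lists were chosen with earlier results of these data known. Regions named were those open at intermediate days only, the strongest at a gene end, the 2 strongest others and up to 3 gained and lost per gene, with others given for contrast and chosen after their values were seen. Alternatives were lists of equal length (45497 peaks), a minimum score of 133, 50% coverage, windows of 25 and 100 kb, each library left out, all 10 libraries counted separately and a replicate block.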

Additional observations from a re-analysis of the deposited data

How the results depend on the processing

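Weaker openings are limited by depth, since unlisted peaks below a summit pileup of 11 to 23 cannot be told from closed chromatin. With lists of equal length there were 84 regions near the 8 genes, of which 11 were open at intermediate days only (13.1%, and 14% of all regions) and 12 gained in ESC against MEF (14.3%, and 12.9%). With a minimum score of 133 there were 68 regions, 12 gained (17.6%, and 16.3% of all regions) and 3 lost (4.41%, and 10%). A 25 kb window left 15 gained regions (16.5%, and 15.9%), and a 100 kb window gave 209 regions, 13 at intermediate days only (6.22%, and 9.61%) and 14 lost (6.70%, and 11.1%). A peak in at least 1 library of an intermediate day gave 15 regions at intermediate days only. The share of all regions under this looser rule was not computed, so the count cannot be set against the series. The remaining alternatives kept counts within 1.5 times. Leaving out 1 library gave 119 to 137 regions, 6 to 20 at intermediate days only, 26 to 58 gained and 6 to 14 lost. Over all regions the shares then ran from 10.6% to 12.5% at intermediate days only, 16% to 29.8% gained and 11.2% to 21.4% lost. The count at intermediate days only was 20 without ESC replicate 1 (16.8%, and 12.3% of all regions). Without DAY9 replicate 2 it was 10 (7.46%, and 12.3% of all regions). The number of the 8 genes with an adjusted exact permutation p below 0.05 was 0 under each setting run, with 0 to 4 of them below 0.05 unadjusted. The number over the whole genome was also 0 under each setting, so this shows nothing particular to the 8 genes. Unadjusted, 7.4% to 39.9% of all genes lay below 0.05 by setting. The setting with 4 of the 8 genes, all 10 libraries counted separately, was the one with 39.9% of all genes.

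Replicate numbers showed little pairing in the region counts: deviations from the stage mean, over genes, correlated between -0.046 and 0.11 over 10 stage pairs. This cannot tell whether libraries with the same replicate number shared a culture or preparation. Under a replicate block, calls need 1 library against 1, and the mean counts were 22.5 at intermediate days only, 53.5 gained and 16.5 lost. This rule loosens the calls for every region, and the share of all regions was not computed for it. The counts therefore show nothing particular to the 8 genes. The gene test called 0 of the 8 genes and 0 genes of the genome.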
